A study of Dugesia japonica with 6 samples.

Results

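The 100 transcript contigs described here were higher in every library of planarians adapted to adenosine dialdehyde (AdOx) than in every control library, by wider margins than any other contig higher in AdOx. They were chosen by their measured values: among the 28064 of 44723 contigs with a mean CPM (counts per 1000000 counts of the library) of at least 2, those with the largest gap between the lowest AdOx and the highest control library. This gap, called the separation, was taken on the scale log2(CPM + 0.5), with CPM computed on the total of each file. It ran from 2.60 in the contig of rank 1 to 0.281 in the contig of rank 100. Because the choice used all 6 libraries and both groups, the differences between AdOx and control below are descriptions and no test of AdOx is made on them.

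The libraries were made from poly(A)-enriched RNA of whole intact animals of the flatworm Dugesia japonica. AdOx animals of 1 cm spent 1 month in spring water with 100 µM AdOx, and control animals of the same size spent that time in water with the hydrochloric acid vehicle, which the AdOx water also contained. Each group had 3 libraries, each from 6 individuals that had been starved for at least 7 days before the start and came from a colony kept at 20 °C. Totals ranged from 15606794 to 20385026 counts per library. With 10 animals to a vessel and 6 to a library, the 3 libraries of a group cannot all be from the same vessel. Nothing in the labels tells which libraries shared a vessel, and part of their spread may be technical. RNA came from whole animals, so more cells of a type and more RNA per cell cannot be told apart.

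AdOx inhibits S-adenosylhomocysteine hydrolase, the enzyme that breaks down S-adenosylhomocysteine, the product left when S-adenosylmethionine gives up its methyl group. When that product builds up, it inhibits the methyltransferases that act on RNA, DNA, histones and small molecules. Planarians renew their tissues from dividing stem cells called neoblasts, and signals such as Wnt tell the animal where its head and tail are. The series examined which genes differ in animals that live on in the inhibitor. No file pairs the contig IDs with names of genes, so no function or cell type can be given to any of the 100 contigs, and tissue markers were not checked. Only the 2 contigs of widest separation are named by ID, and the others are called by their rank.

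Contig comp134958_c0_seq1, of rank 1, was the only one of the 100 with fewer than 10 counts in any library. In AdOx replicates 1, 2 and 3 it stood at 4.01, 6.54 and 11.1 CPM, and its control libraries held 5, 3 and 2 counts. In control animals it was thus close to absent, while AdOx replicate 3 held more of it than the other AdOx libraries. The pooled counts of 358 and 10 gave a ratio of 41.4 after scaling to the totals, with an exact binomial (Clopper-Pearson) 95% interval from 22.3 to 87.1 that covers counting error only. Contig comp130466_c0_seq2, of rank 2, was at 58.8, 56.8 and 45.0 CPM in AdOx and 8.19, 13.0 and 13.3 CPM in control. Here both groups were well detected, and the means were 53.5 ± 7.48 CPM in AdOx and 11.5 ± 2.86 CPM in control (SD, n = 3), a 4.66-fold difference.

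The contig of rank 3 was at 112, 109 and 92.1 CPM in AdOx and 32.8, 45.6 and 32.2 CPM in control, 2.83-fold higher on average. That of rank 4 was scarcer, with 3.89, 5.13 and 4.90 CPM in AdOx against 1.77, 1.82 and 0.991 CPM in control, 3.04-fold higher. After these 4 the separation went from 0.921 to 0.737, and the next 6 contigs were each close to 2-fold higher in AdOx. Rank 5 had 2.83, 3.01 and 2.84 CPM in AdOx and 1.472, 1.498 and 1.486 CPM in control, so each group lay within a narrow band although the counts behind it were only 27 to 48 per library. Rank 6 had 7.72, 8.14 and 6.91 CPM in AdOx against 3.83, 4.07 and 3.85 CPM in control. Rank 7 had 20.3, 14.1 and 14.5 CPM against 8.83, 7.71 and 7.87 CPM, with AdOx replicate 1 above its 2 group mates.

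Rank 8 was at 5.07, 5.32 and 4.61 CPM in AdOx and 2.40, 2.89 and 2.26 CPM in control. Rank 9 was at 11.1, 10.2 and 10.4 CPM in AdOx and 6.62, 6.05 and 4.90 CPM in control. Rank 10 was at 8.43, 9.10 and 14.0 CPM in AdOx and 5.49, 4.82 and 5.28 CPM in control, with AdOx replicate 3 standing above the others. Over ranks 5 to 10 the fold of group means lay between 1.81 and 2.02.

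**Figure D1:**
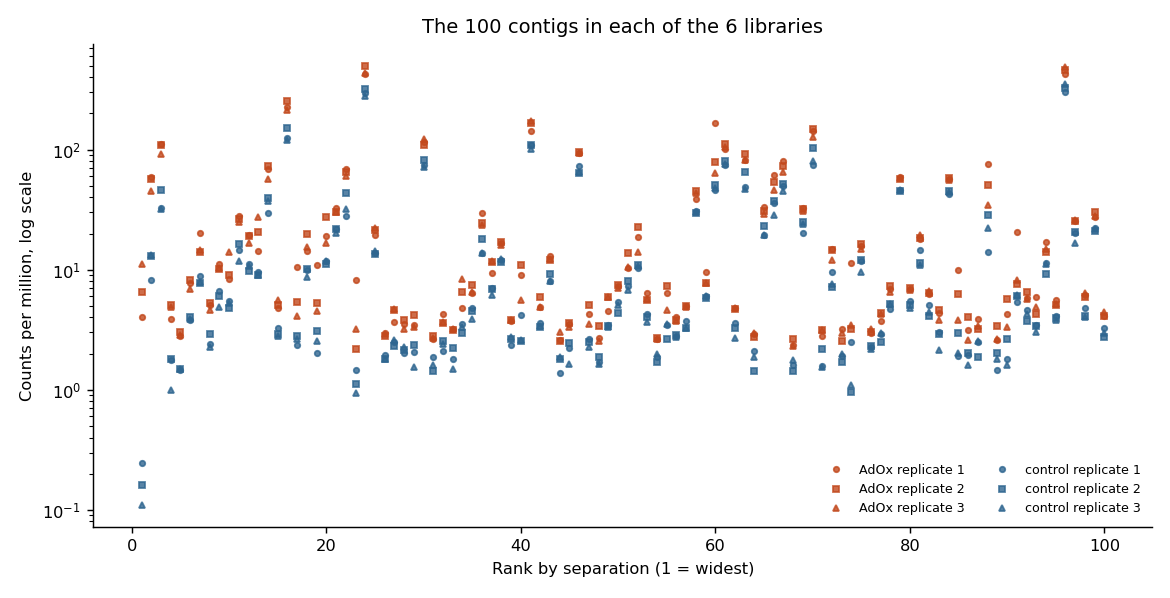
Abundance of each of the 100 contigs (x axis, rank by separation) in CPM on a log scale, with AdOx libraries in orange and control libraries in blue and a marker shape per replicate number. The groups do not overlap in any contig, which the choice fixes, and rank 1 is set apart by its low control libraries, at 0.110 to 0.245 CPM.

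The 88 contigs of ranks 11 to 98 were 1.27-fold to 3.94-fold higher in AdOx, with a median of 1.58. Over all 100 the median fold was 1.60, 67 were at least 1.5-fold higher, 18 at least 2-fold, 5 at least 3-fold and 2 at least 4-fold. The summed abundance of the 100 contigs was 3378, 3414 and 3176 CPM in AdOx and 2003, 2183 and 2005 CPM in control. Together they therefore took 3323 ± 128 CPM in AdOx and 2064 ± 104 CPM in control (SD, n = 3), a 1.61-fold difference in a small part of the libraries.

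The limit of 100 falls in a continuum. Just inside it, rank 99 was at 27.4, 30.4 and 28.0 CPM in AdOx and 22.4, 20.8 and 21.9 CPM in control, with a separation of 0.2813. Rank 100 was at 4.13, 4.10 and 4.43 CPM against 3.29, 2.73 and 2.97 CPM, at 0.2809. Just outside, the next contig was at 147, 138 and 142 CPM against 112, 114 and 106 CPM, at 0.2804, and the contig after it was at 2.95, 3.33 and 2.84 CPM against 1.67, 2.25 and 1.82 CPM, at 0.2802. These 4 contigs differ widely in abundance and hardly at all in separation. All AdOx libraries lay above all control libraries in 2927 of the 28064 contigs, or 10.4%, and the 100 described here are the top of that set.

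Taken in the opposite direction, 1589 contigs had all control libraries above all AdOx libraries. With TMM-scaled library sizes, which shift the median log2 difference of all kept contigs from 0.019 to 0.0085, the numbers came closer, at 2412 upward and 1904 downward. The 100 widest downward contigs had a median separation of 0.313 and a limit of 0.257, against 0.353 and 0.281 upward. The widest downward contig, at 3.09, stood farther apart than the widest upward one, but the second was at 1.07, below the 1.72 of comp130466_c0_seq2. No test was made of these differences between the directions.

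**Figure D2:**
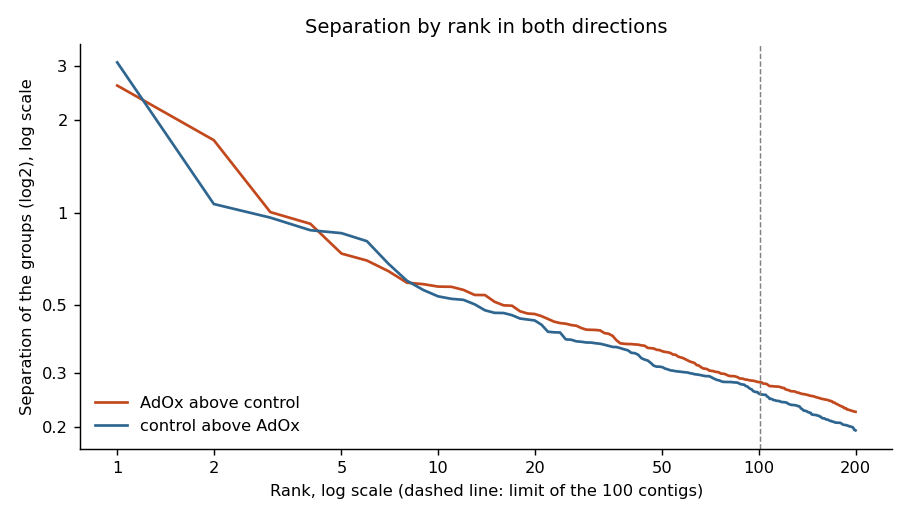
Separation of the groups (y axis, log2, drawn on a log scale) against rank (x axis, log scale) for contigs with AdOx above control and for those with control above AdOx, down to rank 200. The upward curve crosses the limit of 100 contigs (dashed line) at 0.281 and the downward one at 0.257, with no step in either.

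Mean abundance over 6 libraries ran from 2.02 to 393 CPM among the 100 contigs, with a median of 5.79 CPM against 8.25 CPM for all contigs kept. Of the 100, 45 had a mean under 5 CPM, where 32.9% of the kept contigs lie, 28 had 5 to 20 CPM, 22 had 20 to 100 CPM and 5 had at least 100 CPM. The size of the difference varied little between these classes: the median fold of group means was 1.65, 1.56, 1.51 and 1.53 from the scarcest to the most abundant. Most abundant was rank 96, with 426, 463 and 490.5 CPM in AdOx and 302, 324 and 350 CPM in control. Rank 24 followed with 429, 497 and 436 CPM in AdOx and 294, 317 and 279 CPM in control. Rank 16 came next with 228, 253 and 214 CPM in AdOx and 124.7, 150.96 and 120 CPM in control. In these 3 contigs the difference was 1.41-fold, 1.53-fold and 1.75-fold and rested on at least 2188 counts in every library.

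Counting error limits how firmly the gap of each contig was measured, as does the spread between libraries, which the intervals below leave out. For each contig an exact Poisson 95% interval was put on the lowest AdOx and the highest control library, the pair that bounds the gap, to cover counting error only. The 2 intervals lay apart in 38 of the 100 contigs, beside 0.410% (115) of all 28064 kept contigs and 3.93% of the 2927 with AdOx above control. The choice read the same gap, so the count describes the list. By abundance they lay apart in 2 of the 45 contigs under 5 CPM, 10 of 28 at 5 to 20 CPM, 21 of 22 at 20 to 100 CPM and all 5 above. Over all kept contigs the numbers in these classes were 2, 10, 42 and 61, so under 20 CPM the contigs with intervals apart were all in the list and above 20 CPM many were not. In rank 5 the lowest AdOx library had an interval from 2.09 CPM and the highest control library one up to 2.17 CPM. The intervals of this bounding pair thus overlapped, even though the separation was 0.737. In rank 1 the same bounds were 3.11 and 0.572 CPM.

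When the whole table was fitted with edgeR's quasi-likelihood test, 31 of the 38728 contigs tested, or 0.0800%, were higher in AdOx at a Benjamini-Hochberg adjusted p under 0.05, and in this fit all 31 were among the 100. The test and the choice read the same contrast, so this count is a description of how the lists nest. The 31 included 20 of the first 25 ranks and 6 of the last 50, and rank 88 was the last. Called contigs had a median fold of 1.84 and a median abundance of 17.4 CPM, and the 69 others 1.52-fold and 4.44 CPM. The fitted log2 fold change ran from 0.33 to 5.31 over the 100, with a median of 0.67 and a median standard error of 0.15, beside a median of 0.0061 over all contigs tested. The number of the 100 that was called depended on single libraries. Without AdOx replicate 1 it was 8, of 9 higher calls among 39266 contigs tested. Without control replicate 1 it was 13, of 13 among 38972, and without control replicate 3 it was 3, of 3 among 39033. Without AdOx replicate 2 it was 42, the 31 included, of 62 among 39286. Without AdOx replicate 3 it was 32, of 39 among 39265, and without control replicate 2 it was 27, of 30 among 39137.

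Intervals apart and calls did not always go together. Both held for 26 contigs and neither for 57, while 12 had intervals apart without a call and 5 a call with overlapping intervals. Rank 79 is an example of the 12, named after its values were seen: it was at 58.9, 56.9 and 58.4 CPM in AdOx and 46.2, 45.1 and 46.0 CPM in control. Its libraries agreed closely within each group, but the fold of means was only 1.27, the smallest of the 100.

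**Figure D3:**
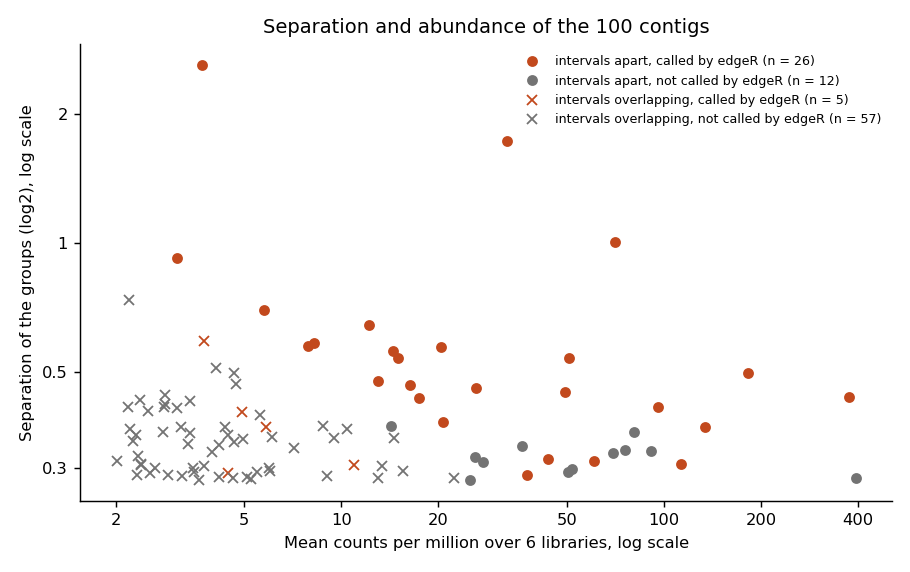
Separation (y axis, log2, drawn on a log scale) against mean abundance over 6 libraries (x axis, CPM, log scale), with a filled circle where the 95% counting intervals of the bounding libraries lay apart, a cross where they overlapped, and orange for contigs called higher by edgeR. Crosses fill the left side, with 43 of the 45 contigs under 5 CPM, and circles the right.

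Within groups the 100 contigs spread somewhat less than contigs in general. The median SD of log2(CPM + 0.5) was 0.114 in AdOx and 0.114 in control, against 0.142 and 0.132 over all kept contigs. A wide gap requires a small spread, so this follows in part from the choice. In 55 contigs the 3 AdOx libraries lay within 1.2-fold of each other, in 52 the control libraries did, and in 30 both did. A span of 2-fold or more occurred in 9 contigs among AdOx and in 3 among control libraries.

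No single library bounded the gaps. AdOx replicate 3 was the lowest of its group in 47 contigs, replicate 1 in 29 and replicate 2 in 24. Control replicate 2 was the highest of its group in 43 contigs, replicate 1 in 41 and replicate 3 in 16. Relative to its group mean, AdOx replicate 3 lay at a median of -0.051 on the log2 scale over the 100 contigs, but at 0.015 over all kept contigs. AdOx replicate 2 lay at 0.022 over the 100 and at -0.030 over all.

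In 9 of the 100 contigs, and in 1.15% of all kept contigs, the top AdOx library was at least 1.5 times the middle one. These contigs were singled out after their values were seen. In 7 of the 9, from 4 components, the top library was AdOx replicate 1, and in ranks 1 and 10 it was AdOx replicate 3. Over all kept contigs with such a top library, it was AdOx replicate 1 in 27.2%, replicate 2 in 26.3% and replicate 3 in 46.4%. Rank 74 was at 11.3, 3.20 and 3.49 CPM in AdOx, in replicate order, and at 2.50, 0.963 and 1.10 CPM in control. Rank 23, of the same component, was at 8.13, 2.18 and 3.19 CPM in AdOx and 1.47, 1.12 and 0.936 CPM in control. Their mean folds of 3.94 and 3.82 rest largely on AdOx replicate 1, as their SDs of 4.61 and 3.19 CPM against means of 6.00 and 4.50 CPM in AdOx show.

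Rank 60 was at 168, 78.9 and 63.7 CPM in AdOx and at 46.4, 50.6 and 48.1 CPM in control. Rank 91, whose ID shares the first part with that of rank 60, was at 20.8, 7.56 and 8.27 CPM in AdOx and 5.35, 6.05 and 6.11 CPM in control. In both, replicate 1 was over 2-fold above the other AdOx libraries, which lay much nearer control. The remaining 3 of the 7 are ranks 17, 19 and 85, which share a component and follow with it.

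A component is the part of the ID before the contig number. Contigs of 1 component can be near-identical versions of a transcript, and reads may be divided between them, so their counts are not independent. The 100 contigs came from 91 components: 84 held 1 of them, 5 held 2 and 2 held 3. In 47 components the contig was the only one listed, so 47 of the 100 contigs stood alone, whereas 24.6% of all kept contigs did. Of the 100 widest downward contigs 39 stood alone, so a high share of lone contigs is not particular to the upward list. In 2 further components both contigs were among the 100, and the other 42 components also held contigs outside the list.

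Of the components that held 3, the one with ranks 17, 19 and 85 had 13 contigs. Rank 17 was at 10.5, 5.38 and 4.14 CPM in AdOx and 2.36, 2.78 and 2.64 CPM in control. Rank 19 was at 10.96, 5.25 and 4.49 CPM in AdOx and 2.01, 3.10 and 2.53 CPM in control. Rank 85 was at 9.84, 6.215 and 3.78 CPM in AdOx and 1.91, 2.997 and 2.04 CPM in control. The 3 shared the same order of AdOx libraries, with replicate 1 highest and replicate 3 lowest. The other 10 contigs of this component summed to 83.4, 86.9 and 87.0 CPM in AdOx and 86.9, 95.7 and 84.3 CPM in control, so the groups overlapped in them. The 3 contigs made up 27.3%, 16.2% and 12.5% of the component's reads in AdOx replicates 1, 2 and 3, and 6.74%, 8.49% and 7.88% in control.

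The second component with 3, of 9 contigs, held ranks 50, 59 and 71. Rank 50 was at 7.25, 7.50 and 6.97 CPM in AdOx and 5.35, 4.39 and 5.12 CPM in control. Rank 59 was at 9.61, 7.69 and 7.80 CPM in AdOx and 5.985, 5.83 and 6.00 CPM in control. Rank 71 was at 2.83, 3.14 and 3.13 CPM in AdOx and 1.57, 2.19 and 1.54 CPM in control. Unlike the first component, its AdOx libraries lay close together. The 3 contigs held 11.5% ± 0.764 of the component in AdOx and 9.16% ± 0.242 in control (SD, n = 3), and the other 6 contigs overlapped between groups, with 155, 130 and 147 CPM in AdOx against 130, 125 and 121 CPM in control.

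In both 2-contig components made up wholly of listed contigs, the pair moved alike. Rank 11 was at 28.0, 26.2 and 24.7 CPM in AdOx and 14.7, 16.4 and 11.8 CPM in control. Its partner, rank 36, was at 29.5, 24.5 and 23.8 CPM in AdOx and 13.8, 18.1 and 13.9 CPM in control. Both were about equally abundant in each library, and their total was 57.5, 50.7 and 48.5 CPM in AdOx against 28.5, 34.5 and 25.6 CPM in control. In the other pair, rank 14 was at 68.9, 73.2 and 57.3 CPM in AdOx and 29.5, 39.3 and 37.2 CPM in control. Its partner, rank 22, was at 68.5, 65.0 and 59.8 CPM in AdOx and 27.9, 43.6 and 31.7 CPM in control. Again neither contig dominated its component in any library.

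A component of 5 contigs held ranks 15 and 32. Rank 15 was at 4.83, 5.06 and 5.61 CPM in AdOx and 3.24, 2.89 and 2.81 CPM in control. Rank 32 was at 4.24, 3.59 and 3.66 CPM in AdOx and 2.11, 2.57 and 2.42 CPM in control. The other 3 contigs of the component were scarcer and summed to 2.65, 3.33 and 3.13 CPM in AdOx and 2.11, 2.19 and 1.76 CPM in control, so all of it was higher in AdOx. The component of ranks 23 and 74, also of 5 contigs, totalled 40.6, 9.10 and 12.9 CPM in AdOx and 7.85, 4.55 and 4.46 CPM in control. There AdOx replicate 1 was also the highest library over the contigs outside the list, at 21.2 CPM against 3.72 and 6.26 CPM in the other AdOx libraries. The last component with several listed contigs, of ranks 62 and 98, had 6 contigs, and its total overlapped between groups, with 39.6, 35.9 and 40.3 CPM in AdOx and 39.0, 30.5 and 27.5 CPM in control.

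Summed over every contig of a component, all AdOx totals lay above all control totals in 81 of the 91 components, beside 13.9% of the 13656 component totals with a mean of at least 2 CPM. In 49 of the 91 the total consists of listed contigs alone, so it could not do otherwise. Of the 42 with other contigs, 32 totals were so separated, with a median fold of 1.31 in those 32 and 1.28 over all 42. The sum of the other contigs, without the listed ones, had all AdOx libraries above all control libraries in 16 of the 42, all below in 1 and overlapping groups in 25, and its median fold was 1.22. Taken singly, 37 of the 107 other contigs that passed the CPM minimum had all AdOx libraries above all control libraries, beside 10.4% of all 28064 kept contigs. They may share reads with the listed contigs, so their counts are not independent of them.

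The share of a component that its listed contigs held was higher in every AdOx library than in every control library in 28 of the 42, and lower in none. Counted by contig, the share was so separated in 33 of the 53 listed contigs that have others in their component, beside 5.08% of all 21173 such contigs kept and 21.2% of those with AdOx above control. A contig picked for a wide gap tends to gain share, so this is a description of where the gain lies. In rank 88, singled out after its values were seen, the only partner went the other way. Rank 88 was at 75.9, 50.7 and 34.7 CPM in AdOx and 14.0, 28.3 and 22.4 CPM in control, while its partner was at 8.08, 8.20 and 7.33 CPM in AdOx and 10.1, 11.8 and 11.7 CPM in control. The share of rank 88 was thus 86.3% ± 3.92 in AdOx and 64.8% ± 6.34 in control (SD, n = 3), although its own 3 AdOx libraries differed over 2-fold.

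In rank 25, also picked out after its values were seen, the partner hardly differed between groups. Rank 25 was at 19.5, 21.3 and 22.2 CPM in AdOx and 13.8, 13.5 and 14.3 CPM in control, and its partner at 21.9, 24.35 and 20.5 CPM against 22.6, 24.7 and 23.5 CPM. Its share was 48.5% ± 3.0 in AdOx and 37.0% ± 1.43 in control (SD, n = 3). Rank 76 lay in a component whose total was not higher in AdOx. That total was 38.1, 31.2 and 35.0 CPM in AdOx and 39.5, 35.9 and 39.1 CPM in control, while the share of rank 76 was 8.83% ± 0.991 in AdOx and 5.92% ± 0.431 in control (SD, n = 3). No source used here says how reads matching several contigs were counted, and its part in these shares was not tested.

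**Figure D4:**
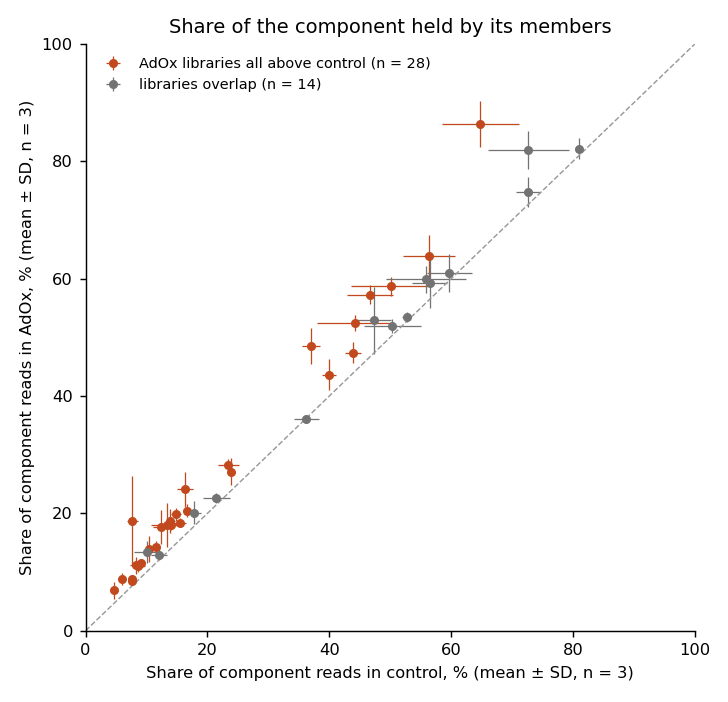
Share of a component's reads held by its listed contigs, in percent, in AdOx (y axis) against control (x axis), as mean ± SD of 3 libraries, for the 42 components that also hold contigs outside the list. Most points lie above the dashed line of equal shares, 28 of them with all AdOx libraries above all control libraries (orange), and rank 88 is the point at 64.8% and 86.3%.

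The authors' deposited table lists 30 contigs as higher in AdOx, or 0.0671% of the 44723 contigs in the files, and 11 of these 30 were among the 100. The highest adjusted p of these 30 by the Wald test of that table was 0.00979, below the 0.05 used for the edgeR calls. The choice of the 100 used no p-value, and the part of this stricter range in the overlap was not tested. The name of the table speaks of 2 replicates, and its mean normalized counts matched those of AdOx replicates 1 and 3 with control replicates 2 and 3, to within 3.77e-13%, where the next closest choice of libraries differed by up to 17.9%, so it rests on fewer libraries than the choice of the 100. The 11 shared contigs are 11% of the 100 contigs and 36.7% of the listed rises. The authors' deposited table gives 89 contigs as lower, none of which was among them. The highest of the 11 in the authors' deposited table was comp130466_c0_seq2, at 1.92 on the log2 scale with a standard error of 0.16, followed by rank 3 with 1.32 and rank 7 with 1.09. Contig comp134958_c0_seq1, of rank 1, was not among the 30. The 2 largest of the 30, at 2.22 and 2.10, were outside the 100, with separations of -1.11 and -1.02. The 11 had a median of 0.65 on the log2 scale in the authors' deposited table and the 19 other rises one of 0.58. In all 19 of those AdOx replicate 2 was the lowest AdOx library, and in 17 control replicate 1 was the highest control library, against 2 and 4 of the 11. Of the 19, 3 had all AdOx libraries above all control libraries. AdOx replicate 2 and control replicate 1 are the libraries that the table left out. Its own 4 libraries also entered the choice of the 100, so the overlap is a description.

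A reading on a library that took no part in the choice was had by applying the same rule to 5 libraries at a time. Without AdOx replicate 1, 91 of the 100 contigs so chosen had that library above all control libraries, beside 30.9% of all contigs kept. Leaving out AdOx replicate 2 gave 87, beside 31.5%, and leaving out AdOx replicate 3 gave 94, beside 29.9%. Control replicate 1, when left out, lay below all AdOx libraries in 83 of 100, beside 25.5%. For control replicate 2 the number was 97, beside 29.5%, and for control replicate 3 it was 98, beside 35.8%. The libraries of the other group did enter the choice, so these shares are not fully independent of it. Contigs merely separated upward on the same 5 libraries, by any margin, had the left-out library on that side in 57.4% to 81.5%, below the 100 in each of the 6 cases. The 100 were picked for the widest margins on those 5 libraries, so their higher share follows in part from the choice.

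The gap itself was narrower in the left-out library in 5 of the 6 cases. These gaps are not the same measure. In the reduced group, the gap on 5 libraries is bounded by the nearer of 2 libraries, and the other gap by the left-out library alone. The median gap of the chosen contigs fell from 0.445 on the 5 libraries to 0.370 against AdOx replicate 1, from 0.419 to 0.370 against AdOx replicate 2 and from 0.480 to 0.313 against AdOx replicate 3. For control replicate 1 it fell from 0.459 to 0.295 and for control replicate 2 from 0.442 to 0.326. Control replicate 3 was the exception, with 0.370 on the 5 libraries and 0.494 when left out. The lists chosen on 5 libraries shared 55 to 77 contigs with the 100.

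**Figure D5:**
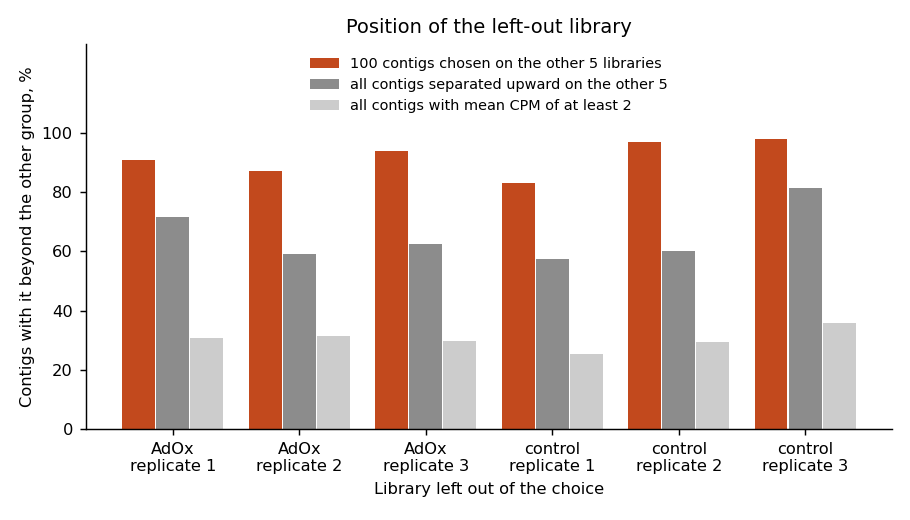
Percent of contigs in which a library left out of the choice lay beyond all libraries of the other group (y axis), for each of the 6 libraries (x axis). Orange bars are the 100 contigs chosen on the other 5 libraries, with 83% to 98%, dark grey bars all contigs separated upward on those 5, and light grey bars all contigs with a mean CPM of at least 2.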

How the data were processed

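RNA-seq libraries of 3 AdOx and 3 control groups of animals were compared. The deposited files hold raw counts of reads per contig, and contigs missing from a file were taken as 0. The submitters' processing notes name Bowtie2 2.2.3 and DESeq2, and for the transcriptome and the counting step the sources used here give nothing. The authors' deposited table gives, per the file headers, log2 fold changes with standard errors, p-values and adjusted p-values, and 2 columns of unit score, the mean of normalized counts, used only to find which libraries the table rests on, and the Wald statistic, which was not used.

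CPM was computed on file totals (pseudocount 0.5, mean CPM of at least 2). edgeR 4.0.16 in R 4.3.3 was fitted to all contigs passing filterByExpr (minimum count 10, minimum total 15) with TMM factors, the group as the only term, and Benjamini-Hochberg adjustment at 0.05. DESeq2 1.42.0 was an alternative. Intervals are exact, at 95%.

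The 100 contigs, the lists and the tests were chosen with earlier results of these data known. Values in every library were given for ranks 1 to 10, the contigs next to the limit, the 3 most abundant contigs and 6 of the 7 components with several listed contigs, the 7th by its total; ranks 25, 60, 76, 79, 88 and 91 were added after their values were seen. Gene lists and markers were not analysed here, since no file names the contigs.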

Additional observations from a re-analysis of the deposited data

How the results depend on the processing

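All 100 contigs kept a separation above 0 under both other scalings, with a lowest of 0.223 with TMM-scaled sizes and 0.219 with DESeq2 size factors. The TMM factors lay between 0.975 and 1.039, too near 1 to close a gap of 0.281. The choice thus fixed the outcome under TMM scaling, and it is no check. Another pseudocount (0.1, 1 or 2) cannot change the sign, and leaving out a library can only widen the gap. The lists were less stable. Of the 100 contigs, 55 stayed with a mean CPM of at least 5, where the 45 scarcer ones drop out by construction, 65 with no minimum, where scarcer contigs enter, and 55 to 77 stayed when 1 library was left out. TMM-scaled sizes kept 79 and DESeq2 size factors 77. edgeR's 57 calls in all became 127 with DESeq2's Wald test and 9 to 132 without single libraries, and the 31 calls among the 100 became 3 to 42. The cause was not tested. With the replicate block there were 920 calls, 464 higher and 456 lower. Of the 464, 79 were among the 100, all 31 included, so most higher calls then lay outside the list. The deviations of same-numbered libraries correlated at 0.094, 0.33 and 0.13, and those of unlike-numbered libraries at -0.25 to 0.12. Control replicate 1 correlated more with AdOx replicate 3 (0.12) than with its own number. The labels do not say whether same-numbered libraries shared a batch. The median separation, the median fitted fold change, the count of component totals and the counts for left-out libraries stayed within 1 SD or 1.5 times under every alternative run. Leaving out a library cannot lower the median separation or the count of component totals, so those runs are no check of them. Under TMM scaling, the only other alternative for the totals, the count went from 81 to 80. Depth limits the scarce contigs: the counting intervals of the bounding libraries lay apart in 2 of the 45 under 5 CPM.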
